A study of Mus musculus with 14 samples.

Results

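Activity-regulated immediate early genes are genes that neurons switch on after synaptic input, the first of them within minutes and before any new protein is made. A set of 38 of them was followed by gene symbol through the count tables of both experiments, and all 38 were found in each table, which list 25229 symbols for the progenitor and 55353 for the postmitotic experiment. The filter on low counts left 38 of 38 for testing among 15295 genes in the progenitor experiment and 37 of 38 among 17775 genes in the postmitotic one. The member left out was Ptgs2, with 3 to 8 counts per postmitotic library.

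Calcium that enters through synaptic receptors and voltage-gated channels activates kinases that modify transcription factors already bound to these promoters, among them CREB, SRF with its ternary complex factors, and MEF2. The first products are themselves transcription factors of the AP-1, EGR, NR4A and NPAS4 families, together with phosphatases and kinases that shut the signal off again, and synaptic or secreted proteins such as Arc and BDNF. In cortex the genes are used as a readout of recent activity, and many of them also respond to growth factors and to cell stress.

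The RNA came from layer II/III of mouse cerebral cortex at postnatal day 5, and the 14 libraries fall into 4 groups. All 4 groups carried Lhx2lox/lox, a floxed allele of Lhx2, a homeobox gene expressed in dividing cells of the cortex and later in its upper layers. Progenitor libraries labelled mutant (n = 4) came from Lhx2lox/lox cortex electroporated in utero at E15.5 with a Cre-EGFP plasmid. Progenitor controls (n = 4) received an EGFP plasmid. Postmitotic libraries labelled mutant (n = 3) came from NexCre/+; Lhx2lox/lox cortex electroporated with EGFP, where Cre is driven from a locus active in young excitatory neurons. Postmitotic controls (n = 3) were Lhx2lox/lox with EGFP. The labels describe dissection of live slices and trypsin dissociation, and name no cell sort. A plasmid reaches only the electroporated cells, whereas NexCre acts in excitatory neurons whether or not they carry EGFP. In bulk RNA of this kind, fewer cells of a type and less RNA per cell cannot be told apart. The labels do not say whether libraries come from separate animals, and p-values therefore measure only how far these libraries differ, part of which may be technical.

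Library totals lay between 22677019 and 29497595 counts in the progenitor tables and between 21605777 and 25891416 in the postmitotic ones, and every progenitor control was deeper than every progenitor library labelled mutant. Lhx2 does not show the deletion in either set: it had 130 ± 11.4 CPM in progenitor libraries labelled mutant and 127 ± 9.10 CPM in their controls (SD, n = 4 each), and 179 ± 7.41 CPM in postmitotic libraries labelled mutant and 147 ± 3.48 CPM in their controls (SD, n = 3 each). In the postmitotic set it was called higher in libraries labelled mutant (log2 fold change 0.29 ± 0.06, SE, edgeR adjusted p = 0.0276). CPM here are read counts scaled to the TMM-corrected library size. Because of this the groups are called by their labels throughout. All 8 upper-layer markers examined were detected in both tables, and so were markers of astrocytes, oligodendrocyte-lineage cells, microglia and vessels. Progenitor library 3 labelled mutant carried Y-linked counts (99.4 CPM) together with Xist (554 CPM), the RNA of the inactive X chromosome, and it stands apart for several members below, so results that rest on it are given with and without it.

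The members span a wide range of levels. Per kilobase of exon, the highest in progenitor controls were Jund, an AP-1 subunit that is present in most resting cells, with 88.1 CPM per kb, Plk2, a kinase that acts on synapses after prolonged activity, with 57.5 CPM per kb, and Scg2, a secretory granule protein, with 36.3 CPM per kb. In postmitotic controls the same 3 genes led, with 63.2 CPM per kb for Plk2, 21.3 CPM per kb for Scg2 and 20.2 CPM per kb for Jund. At the low end, Fosb stood at 0.13 CPM per kb in progenitor and 0.0946 CPM per kb in postmitotic controls, and Ptgs2 at 0.207 and 0.0552 CPM per kb in the same 2 groups. Jun, Junb, Jund, Bdnf, Dusp1, Dusp5 and Csrnp1 have exons that overlap a gene on the opposite strand, and no source used here states whether counting used strand, so their counts may include reads of that neighbour. The 2 tables were made separately, and levels are not compared between them.

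**Figure D1:**
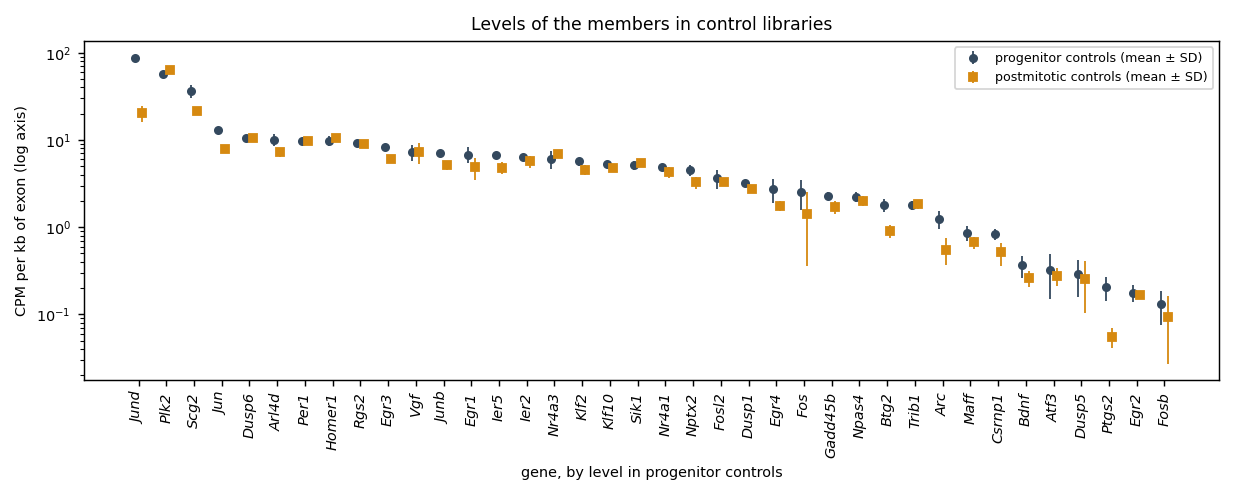
Level of each of the 38 members in control libraries as CPM per kilobase of exon on a log axis, as mean ± SD of 4 progenitor controls (circles) and 3 postmitotic controls (squares), ordered by the progenitor level. Jund, Plk2 and Scg2 lead and Fosb and Ptgs2 are among the lowest; the 2 experiments come from separate tables and their levels are not compared.

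The progenitor comparison asks which of these transcripts differ at postnatal day 5 when Cre was delivered to progenitors. A gene is called when edgeR's quasi-likelihood test gives a Benjamini-Hochberg adjusted p under 0.05 over all tested genes. Of the 38 members, 2 rose (Npas4 and Nr4a1) and 6 fell (Egr3, Arc, Klf10, Ptgs2, Scg2 and Arl4d). That is 21.1% of the members, beside 23.4% among all 15295 tested genes (12% called higher and 11.4% called lower), so the share of members called is near the background. The groups did not overlap in CPM for 9 members, against 27% of all tested genes. The median log2 fold change of the members was -0.14, and that of all tested genes was 0. By role, edgeR called 0 of 8 AP-1 factors (1, Jun, at an unadjusted p under 0.05, and called lower by DESeq2 and limma-voom), 2 rose and 2 fell among 10 EGR, NR4A, NPAS4 and KLF factors, 0 rose and 1 fell among 13 feedback regulators, and 0 rose and 3 fell among 7 synaptic and secreted effectors. Y-linked counts moved with the label here, summing to 99.4 to 170 CPM in 3 of 4 libraries labelled mutant, and to 0 CPM in the other one and at most 0.0381 CPM in controls. With Y-linked CPM as a covariate 6.2% of all tested genes passed (3.39% higher and 2.81% lower), and of the 8 called members Npas4 (0.61 ± 0.16, SE, edgeR adjusted p = 0.0473) and Scg2 (-1.06 ± 0.22, SE, edgeR adjusted p = 0.0276) stayed called, while the other 6 kept their direction without a call (edgeR adjusted p = 0.0715 to 0.349).

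The AP-1 proteins FOS and FOSB each pair with a JUN protein, such as JUNB or JUN, to bind the same DNA element. Fos, Fosb and Junb divided the 4 progenitor libraries labelled mutant. Fos (chromosome 12, 85473890 to 85477273, plus strand, GRCm38/mm10) had 1.61, 1.12, 34.6 and 1.21 CPM in libraries 1 to 4 labelled mutant, against 4.03, 6.37, 4.38 and 8.84 CPM in controls 1 to 4. Libraries 1, 2 and 4 labelled mutant were thus below every control and library 3 was above every control, with 835 counts in it and 26 to 37 in the others. Fosb had 0.131, 0.0862, 5.23 and 0.259 CPM in libraries labelled mutant, against 0.366, 1.18, 0.868 and 0.825 CPM in controls. Junb had 8.92, 8.71, 21.9 and 9.16 CPM in libraries labelled mutant, against 18, 15, 15.1 and 16.6 CPM in controls. Library 3 was the highest of all 8 progenitor libraries for each of these genes, and the other libraries labelled mutant were the lowest.

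Egr1, a zinc finger factor induced by the same signals, had 19.8, 20.3, 67.2 and 21.6 CPM in libraries labelled mutant, against 38.4, 25.9, 25 and 32.9 CPM in controls, which is the same order of libraries. Over all 8 libraries the fold changes were not called. The log2 fold change was 0.71 ± 1.23 for Fos (edgeR adjusted p = 0.721), 0.82 ± 1.21 for Fosb (edgeR adjusted p = 0.669), -0.41 ± 0.31 for Junb (edgeR adjusted p = 0.373) and 0.08 ± 0.47 for Egr1 (edgeR adjusted p = 0.924), each with its SE. Fosb, Junb, Jun and Ier5 were taken up in full after their values were seen.

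Without library 3 labelled mutant, the direction of Fos, Fosb and Egr1 turned round and they were called lower. That library was singled out in part by its high values of these same genes. The calls without it describe the remaining libraries and are not a separate test. Fos was then -2.17 ± 0.31 on the log2 scale (edgeR adjusted p = 0.00244), with a mean of 1.31 ± 0.26 CPM in 3 libraries labelled mutant and 5.91 ± 2.21 CPM in 4 controls (SD). Fosb was -2.32 ± 0.52 (edgeR adjusted p = 0.0162), Junb was -0.86 ± 0.10 (edgeR adjusted p = 0.000752) and Egr1 was -0.57 ± 0.14 (edgeR adjusted p = 0.0286). Jun, the usual partner of Fos, was -0.33 ± 0.08 without that library (edgeR adjusted p = 0.024) and -0.25 ± 0.09 with it (edgeR adjusted p = 0.0526). In all, 7 members fell without library 3 (Fos, Fosb, Jun, Junb, Egr1, Egr3 and Klf10) and 1 rose (Nr4a1), beside 15.4% of 15468 tested genes (8.05% higher and 7.36% lower). Fos in library 3 was 26.4 times the mean of the other libraries labelled mutant and 5.87 times the control mean.

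Few other genes moved with them in that library. Of 15295 tested genes, 7 had more than 2 times the highest CPM of the other libraries labelled mutant in library 3, with 0.5 CPM added to each value. Of these, 4 were members (Fos, Fosb, Egr1 and Junb). The others were Socs3, a feedback inhibitor of cytokine signalling, with 6.6 CPM against 1.85 to 1.9 CPM in the other libraries labelled mutant and 1.3 to 2.72 CPM in controls, Zfp36, a protein that destabilises short-lived mRNAs, with 11 CPM against 2.25 to 3.57 CPM in the other libraries labelled mutant and 2.69 to 4.27 CPM in controls, and the chemokine gene Ccl19. Socs3 and Zfp36 are also on the list of 30 genes known to respond to dissociation and heat shock, and Zfp36 is on the list of other activity-induced genes as well. Among the other progenitor libraries labelled mutant, library 1 had 72 such genes, library 2 had 3 and library 4 had 24, and 0 of these were members. On the low side, 4 genes in library 3 were under 0.5 times the lowest of the other libraries labelled mutant, by the same measure. They were Ttr, Slc6a13, Slc22a6 and Bmp6, and 0 were members. Not all members followed: Fosl2 in library 3 had 21.3 CPM, Nr4a3 19.8 CPM and Bdnf 1.49 CPM, each the lowest of the libraries labelled mutant. Ier2, a small nuclear protein of the same early class, had 16.9 CPM in library 3 and 9.03 to 9.96 CPM in the other libraries labelled mutant, with 9.54 to 10.1 CPM in controls. Of the dissociation and heat shock list as a whole, 17 of 30 were above their group mean in library 3, against 13 to 17 of 30 in the other libraries labelled mutant. Of the other activity-induced genes 26 of 51 were, against 22 to 25 of 51. The part of dissociation or of mixed RNA in the values of library 3 was not tested.

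**Figure D2:**
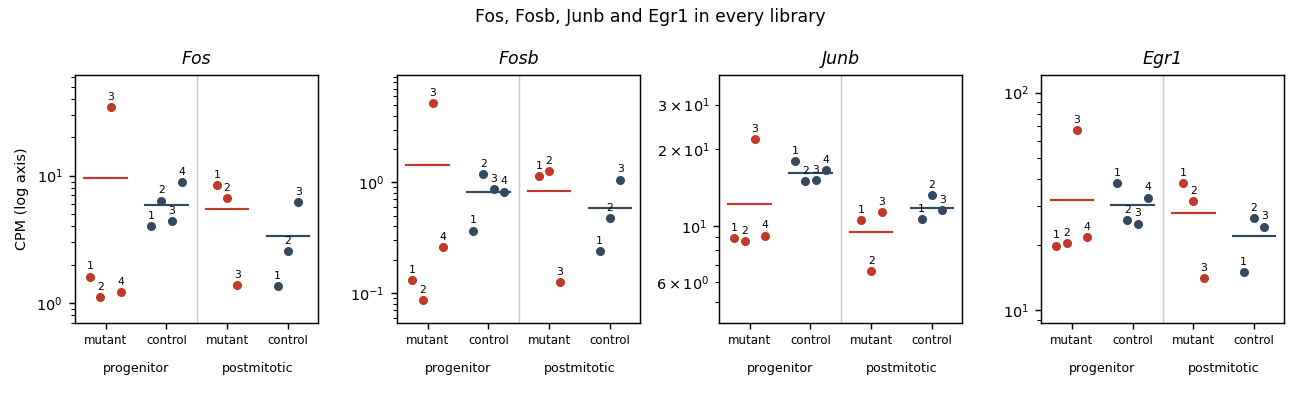
CPM on a log axis of Fos, Fosb, Junb and Egr1 in every library (points, numbered by replicate) for libraries labelled mutant (red) and controls (dark), with the group mean as a line; progenitor libraries are left and postmitotic ones right in each panel. Progenitor library 3 labelled mutant is the highest progenitor point in each panel, and the other 3 libraries labelled mutant lie below every progenitor control.

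The sequence just before the start of transcription is shown for members that moved together in library 3 and for Fosl2, an AP-1 gene that did not, and for Npas4 and Scg2, which are taken up below. The sequences are from RefSeq on GRCm38.p6, cover the 250 bases before the annotated start and read 5′ to 3′ on the strand of the gene. Capitals mark the CRE, TGACGTCA, the palindromic element bound by CREB, or its core, TGACG, on either strand, where CGTCA is the core read from the other strand.
Fos (chr12:85473640-85473889, plus strand): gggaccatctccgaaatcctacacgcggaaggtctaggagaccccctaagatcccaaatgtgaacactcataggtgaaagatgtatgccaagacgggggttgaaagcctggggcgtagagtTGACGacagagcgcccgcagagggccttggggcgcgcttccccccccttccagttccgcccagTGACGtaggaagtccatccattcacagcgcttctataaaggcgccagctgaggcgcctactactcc
Fosb (chr7:19310046-19310295, minus strand): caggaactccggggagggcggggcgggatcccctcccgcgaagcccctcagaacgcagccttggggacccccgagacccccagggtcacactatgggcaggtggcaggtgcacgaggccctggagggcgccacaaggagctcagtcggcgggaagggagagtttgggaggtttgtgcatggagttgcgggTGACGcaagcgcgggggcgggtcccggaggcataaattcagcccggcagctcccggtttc
Junb (chr8:84978749-84978998, minus strand): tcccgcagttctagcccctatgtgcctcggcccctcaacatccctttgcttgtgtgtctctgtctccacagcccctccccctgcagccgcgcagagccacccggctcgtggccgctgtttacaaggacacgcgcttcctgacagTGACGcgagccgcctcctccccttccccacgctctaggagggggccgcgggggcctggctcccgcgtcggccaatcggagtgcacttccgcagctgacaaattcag
Fosl2 (chr5:32136222-32136471, plus strand): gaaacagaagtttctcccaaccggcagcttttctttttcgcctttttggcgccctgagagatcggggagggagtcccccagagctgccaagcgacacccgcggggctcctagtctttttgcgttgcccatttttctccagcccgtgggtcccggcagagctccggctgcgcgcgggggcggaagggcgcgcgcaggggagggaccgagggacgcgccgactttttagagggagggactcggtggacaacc
Npas4 (chr19:4989972-4990221, minus strand): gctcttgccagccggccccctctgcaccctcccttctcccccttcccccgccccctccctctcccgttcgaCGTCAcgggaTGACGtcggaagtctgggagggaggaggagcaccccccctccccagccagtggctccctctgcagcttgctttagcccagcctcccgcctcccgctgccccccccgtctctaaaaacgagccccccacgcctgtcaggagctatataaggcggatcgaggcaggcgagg
Scg2 (chr1:79440027-79440276, minus strand): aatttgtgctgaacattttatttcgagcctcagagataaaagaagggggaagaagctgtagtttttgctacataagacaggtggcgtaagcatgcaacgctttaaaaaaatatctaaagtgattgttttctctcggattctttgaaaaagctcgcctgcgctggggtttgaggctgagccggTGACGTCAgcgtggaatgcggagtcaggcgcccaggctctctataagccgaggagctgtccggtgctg
Fos held the core at -129 and -66 from its start, Fosb at -60, Junb at -106 and Npas4 at -179 and -169, Scg2 held the whole CRE at -68, and these letters are not in the Fosl2 window. The core did not separate the members that stood out in library 3 from the others: Nr4a3 held it at -231, -213, -205 and -147, Bdnf at -35 and Egr4 at -177 and -109, and all 3 were lowest in library 3 among the libraries labelled mutant. No window was at hand for Egr1. A window of 300 bases, 250 before and 50 from the start, was at hand for 29 of the 38 members. TGACGTCA was found on either strand in 20.7% of these members (6 of 29: Dusp1, Btg2, Scg2, Arl4d, Plk2 and Maff) and in 2.03% of all 27025 genes with a window. TGACG, which lies within it and is counted there too, was found in 79.3% of the members (23 of 29) and in 23.0% of all genes. The AP-1 element TGANTCA was in 6.9% of the members (Bdnf and Csrnp1) and 8.97% of all genes, the EGR element GCGTGGGCG in 3.45% (Maff) and 0.707%, and the CArG box bound by SRF in 6.9% (Egr2 and Dusp5) and 1.81%. A match is a description of the letters and not of a bound factor, and genes with several starts have several windows. An element outside the window is not counted, so the lack of a match does not mean that a gene lacks the element.

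Egr3, a zinc finger factor of the same family as Egr1 (chromosome 14, 70077203 to 70082614, plus strand, GRCm38/mm10), was the member that fell in both experiments. It had 26.4, 23.5, 27.3 and 24.6 CPM in progenitor libraries labelled mutant, against 37.1, 35.3, 32.1 and 40.6 CPM in controls. The groups did not overlap, library 3 was close to the others, and the log2 fold change was -0.51 ± 0.08 (SE, edgeR adjusted p = 0.00135). It was called whichever library was left out, with log2 fold changes from -0.57 to -0.45. Postmitotic Egr3 had 11.9, 9.28 and 18 CPM in libraries labelled mutant, against 27.1, 27.3 and 26.6 CPM in controls. The groups again did not overlap, library 3 labelled mutant was nearest the controls, and the log2 fold change was -1.05 ± 0.21 (SE, edgeR adjusted p = 0.0423). The postmitotic call was lost without control 1, 2 or 3 or library 1 labelled mutant, with an edgeR adjusted p of up to 0.204 and log2 fold changes from -1.35 to -0.85. The difference between the experiments was -0.54 ± 0.21 (postmitotic minus progenitor, SE) and was not called (edgeR adjusted p = 0.144).

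Npas4 (chromosome 19, 4984355 to 4990316, minus strand), a factor induced selectively by calcium entry, rose in the progenitor experiment. It had 14, 11.9, 12.7 and 10.9 CPM in libraries labelled mutant, against 10.6, 8.2, 9.7 and 8.43 CPM in controls. Every library labelled mutant was above every control, with a log2 fold change of 0.43 ± 0.11 (SE, edgeR adjusted p = 0.0182), and the call was lost without control 4 or library 1 or 3 labelled mutant (edgeR adjusted p up to 0.0544). Postmitotic Npas4 had 4.79, 3.97 and 6.52 CPM in libraries labelled mutant, against 8.33, 9.35 and 7.31 CPM in controls. Every library labelled mutant was below every control there, with a log2 fold change of -0.71 ± 0.18 that was not called by edgeR (SE, adjusted p = 0.0642) and was called lower by DESeq2 (adjusted p = 0.0224). The difference between the experiments was called, at -1.14 ± 0.21 (postmitotic minus progenitor, SE, edgeR adjusted p = 0.00503). It was called whichever of the 14 libraries was left out (-1.35 to -0.99, edgeR adjusted p up to 0.0192), and with Y-linked CPM as a covariate it was -0.99 ± 0.25 and not called (edgeR adjusted p = 0.0578).

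The orphan nuclear receptor Nr4a1 and the zinc finger factor Klf10 moved in opposite directions in the progenitor experiment. Nr4a1 had 22.5, 23.5, 27.7 and 24 CPM in libraries labelled mutant, against 17.3, 15.6, 16.6 and 19.1 CPM in controls. The groups did not overlap and Nr4a1 rose by 0.51 ± 0.09 on the log2 scale (SE, edgeR adjusted p = 0.00198). Klf10 had 16.8, 18.2, 17.5 and 19.1 CPM in libraries labelled mutant, against 22.1, 21.1, 21.2 and 24.7 CPM in controls. These groups did not overlap either, and Klf10 was -0.31 ± 0.07 (SE, edgeR adjusted p = 0.0113). Both were called whichever progenitor library was left out. Under postmitotic Cre, Nr4a1 was 0.17 ± 0.13 and Klf10 was -0.17 ± 0.11, and neither was called (edgeR adjusted p = 0.692 and 0.622). Among the remaining factors of this class, Egr2 did not overlap between the progenitor groups (0.827 to 1.16 CPM in libraries labelled mutant and 0.481 to 0.793 CPM in controls) but was not called (0.72 ± 0.26, SE, edgeR adjusted p = 0.0635). It was called higher without control 3. Egr4, Klf2, Nr4a3 and Csrnp1 were not called by edgeR over all libraries in either experiment, with log2 fold changes of -0.45 to 0.11. In the progenitor experiment DESeq2 called Klf2 lower, and edgeR called it lower without library 1 labelled mutant and called Egr4 lower without control 3.

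Among the synaptic and secreted effectors, Arc, Ptgs2 and Scg2 fell in the progenitor experiment. ARC is a capsid-forming protein that drives removal of AMPA receptors from synapses. Arc had 2.52, 3.1, 2.2 and 1.86 CPM in libraries labelled mutant, against 3.22, 3.62, 3.28 and 5.06 CPM in controls. The groups were close but did not overlap, and the log2 fold change was -0.65 ± 0.20 (SE, edgeR adjusted p = 0.0394). The call was lost without control 2 or 4 or library 1, 3 or 4 labelled mutant, with an edgeR adjusted p of up to 0.123. Scg2, whose granule protein gives rise to the peptide secretoneurin, had 44.6, 67.4, 51.8 and 66.1 CPM in libraries labelled mutant, against 81.7, 102, 74.6 and 107 CPM in controls. The groups did not overlap, with a log2 fold change of -0.67 ± 0.16 (SE, edgeR adjusted p = 0.0213), and the call was lost without control 2 or 4 or library 3 labelled mutant (edgeR adjusted p up to 0.0588).

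Ptgs2, the inducible cyclooxygenase, had 0.435, 0.345, 0.373 and 0.562 CPM in progenitor libraries labelled mutant, against 0.57, 1.11, 0.868 and 1.24 CPM in controls. That is 8 to 13 counts per library labelled mutant and 14 to 36 per control, so the values are coarse. Its log2 fold change was -1.14 ± 0.31 (SE, edgeR adjusted p = 0.0221), and the call was lost without control 2 or 4 or library 1, 2 or 3 labelled mutant (edgeR adjusted p up to 0.0699). Homer1, a postsynaptic scaffold with a short activity-induced form that gene-level counts cannot separate, had 103, 113, 101 and 111 CPM in progenitor libraries labelled mutant, against 118, 134, 97.1 and 120 CPM in controls. The groups overlapped and the log2 fold change was -0.14 ± 0.09 (SE, edgeR adjusted p = 0.276), but without control 3 it was -0.22 ± 0.06 and called (edgeR adjusted p = 0.0314). Bdnf, the neurotrophin, had 1.96, 1.94, 1.49 and 2.77 CPM in progenitor libraries labelled mutant, against 1.71, 2.9, 1.74 and 2.75 CPM in controls. These values overlapped fully (-0.16 ± 0.25, SE, edgeR adjusted p = 0.674), and the other effectors, Nptx2 and Vgf, were not called by edgeR in either experiment.

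Of the 6 effectors tested under postmitotic Cre, 0 were called. Arc had 1.37, 1.38 and 1 CPM in libraries labelled mutant, against 1.03, 1.97 and 2.08 CPM in controls. Bdnf had 1.41, 0.826 and 1.46 CPM in libraries labelled mutant, against 1.47, 1.38 and 1.99 CPM in controls. Homer1 had 116, 119 and 119 CPM in libraries labelled mutant, against 134, 116 and 132 CPM in controls. All 3 overlapped between the groups, with log2 fold changes of -0.43 ± 0.29, -0.38 ± 0.28 and -0.11 ± 0.07 (SE). Scg2 there was -0.10 ± 0.13 (edgeR adjusted p = 0.83), and its difference between the experiments, 0.57 ± 0.25 (postmitotic minus progenitor, SE), was not called (edgeR adjusted p = 0.189). None of the 6 had an unadjusted p under 0.05, and DESeq2 and limma-voom called 0 of them too, so no change was detected with 3 libraries a group.

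Of the feedback regulators, Arl4d, a small ARF-like GTPase, fell in the progenitor experiment. It had 11.2, 9.1, 8.13 and 10.8 CPM in libraries labelled mutant, against 14.9, 13.7, 11.1 and 16.2 CPM in controls. Control 3 was just below library 1 labelled mutant, so the groups overlapped by that pair, and the log2 fold change was -0.51 ± 0.13 (SE, edgeR adjusted p = 0.0191). The call was lost without control 4 or library 2 or 3 labelled mutant (edgeR adjusted p up to 0.0592). The other 12 feedback regulators were not called by edgeR over all libraries there, with log2 fold changes from -0.42 for Gadd45b, a DNA-repair and demethylation cofactor, to 0.51 for the ERK phosphatase gene Dusp5. Among them, Plk2 did not overlap between the groups (212 to 247 CPM in libraries labelled mutant and 250 to 267 CPM in controls) but was not called (-0.14 ± 0.05, SE, edgeR adjusted p = 0.0797). DESeq2 called Rgs2 lower, and without control 3 or library 4 labelled mutant edgeR called Trib1 higher. Of the remaining AP-1 factors, Jund, Atf3 and Maff were not called by edgeR in either experiment, with log2 fold changes of -0.45 to 0.14.

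**Figure D3:**
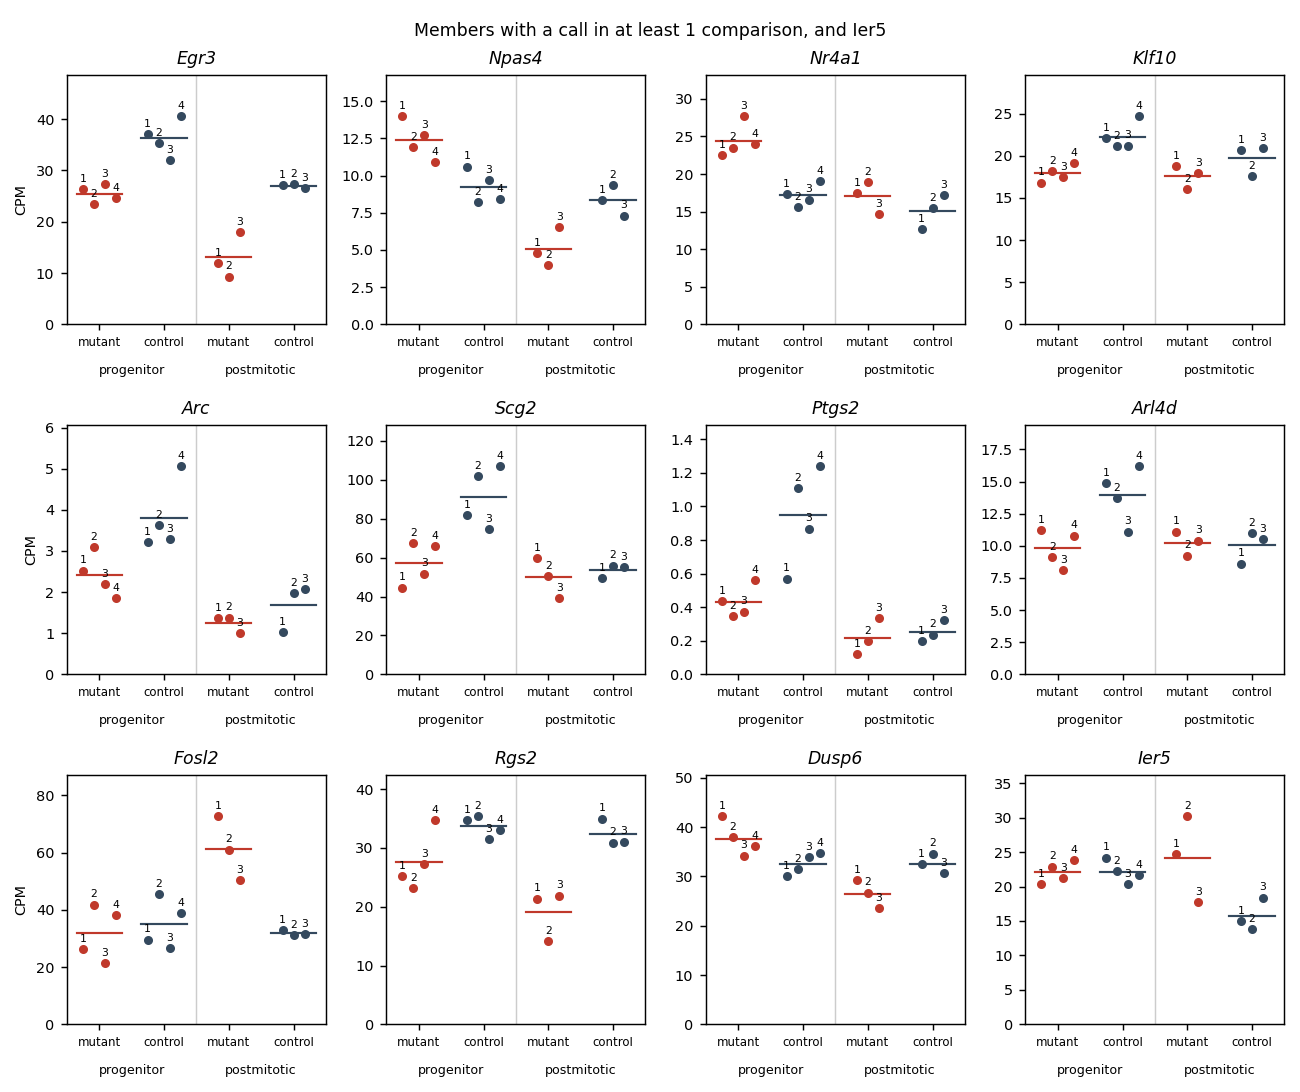
CPM of the 11 members called in at least 1 comparison, and of Ier5, in every library (points, numbered by replicate; libraries labelled mutant red, controls dark; lines are group means; linear axes from 0). Egr3 is below every control in both experiments, Npas4 is above every control in the progenitor and below every control in the postmitotic experiment, and Fosl2 and Rgs2 do not overlap between the groups in the postmitotic panels but do in the progenitor ones.

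The postmitotic comparison asks the same question when Cre acted in young excitatory neurons. Of the 37 tested members, 1 rose (Fosl2) and 2 fell (Egr3 and Rgs2), which is 8.11% of them, against 1.96% of all 17775 tested genes (0.895% higher and 1.06% lower). The groups did not overlap for 9 members, against 16.4% of all tested genes. The median log2 fold change of the members was -0.06, and that of all tested genes was 0. By role, 1 of 8 AP-1 factors rose, 1 of 10 EGR, NR4A, NPAS4 and KLF factors fell and 1 of 13 feedback regulators fell. The members that did not overlap without being called were Npas4, Dusp6 and the kinase gene Sik1, lower in libraries labelled mutant, and Nr4a3, Dusp1 and the pseudokinase gene Trib1, higher in them (edgeR adjusted p = 0.0642 to 0.645).

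Fosl2 (chromosome 5, 32135801 to 32157842, plus strand), which encodes the AP-1 protein FRA2, had 72.7, 61 and 50.5 CPM in postmitotic libraries labelled mutant, against 33, 31.1 and 31.6 CPM in controls. Every library labelled mutant was far above the tightly grouped controls, and Fosl2 rose by 0.94 ± 0.11 on the log2 scale (SE, edgeR adjusted p = 0.000813). It was called whichever library was left out, with log2 fold changes from 0.8 to 1.07. In the progenitor experiment it had 26.3, 41.8, 21.3 and 38.2 CPM in libraries labelled mutant, against 29.6, 45.5, 26.7 and 38.8 CPM in controls. The groups overlapped there (-0.14 ± 0.26, SE, edgeR adjusted p = 0.733), and the difference between the experiments, 1.08 ± 0.34 (postmitotic minus progenitor, SE), was not called (edgeR adjusted p = 0.0804). DESeq2 called this difference (1.09 ± 0.36, SE, adjusted p = 0.0265). So did edgeR with a block for the replicate number, and without progenitor control 3 or progenitor library 2 labelled mutant. It was not called without any other library, or with Y-linked CPM as a covariate (edgeR adjusted p up to 0.263). In 1 fit of all 14 libraries, which shares the wider progenitor spread of Fosl2, the postmitotic value was 0.95 ± 0.26 and not called (edgeR adjusted p = 0.11).

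Rgs2, a brake on G-protein signalling, had 21.4, 14.2 and 21.9 CPM in postmitotic libraries labelled mutant, against 35, 30.9 and 31.1 CPM in controls. The groups did not overlap and Rgs2 was -0.76 ± 0.15 (SE, edgeR adjusted p = 0.0212). The call was lost without any 1 control, with an edgeR adjusted p of up to 0.104 and log2 fold changes from -0.86 to -0.58. In the progenitor experiment Rgs2 had 25.2, 23.2, 27.3 and 34.8 CPM in libraries labelled mutant, against 34.8, 35.4, 31.5 and 33.1 CPM in controls. Library 4 labelled mutant lay among the controls there, and the log2 fold change of -0.29 ± 0.11 (SE, edgeR adjusted p = 0.0797) became -0.41 ± 0.08 and was called without it (edgeR adjusted p = 0.00482). DESeq2 called it lower with all 8 libraries (adjusted p = 0.0493). The difference between the experiments was -0.47 ± 0.20 (postmitotic minus progenitor, SE) and was not called (edgeR adjusted p = 0.171).

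Dusp6, the phosphatase that inactivates ERK in the cytoplasm, was called in neither experiment but for the difference between them. It had 29.2, 26.7 and 23.5 CPM in postmitotic libraries labelled mutant, against 32.5, 34.6 and 30.7 CPM in controls. It had 42.2, 38, 34.2 and 36.1 CPM in progenitor libraries labelled mutant, against 30, 31.5, 33.9 and 34.8 CPM in controls. The postmitotic libraries labelled mutant were all below their controls, at -0.30 ± 0.10 (SE, edgeR adjusted p = 0.184). Most progenitor libraries labelled mutant were above their controls, at 0.21 ± 0.08 (SE, edgeR adjusted p = 0.0654). The difference was -0.51 ± 0.12 (postmitotic minus progenitor, SE, edgeR adjusted p = 0.0195) and was lost without postmitotic control 2 (-0.47 ± 0.13, edgeR adjusted p = 0.0578). Npas4 and Dusp6 were the 2 of 38 members called for the difference (5.26%), both lower in the postmitotic than in the progenitor experiment, against 6.94% of 15643 genes tested for it (3.1% higher and 3.84% lower). The experiments differ in Cre delivery, the stage at which Cre acts and the making of the count tables, which this test cannot tell apart.

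Fos and its companions also split the postmitotic libraries, within each group. Fos had 8.41, 6.65 and 1.38 CPM in libraries 1 to 3 labelled mutant, against 1.35, 2.57 and 6.2 CPM in controls 1 to 3. Fosb had 1.13, 1.26 and 0.125 CPM in libraries labelled mutant, against 0.238, 0.474 and 1.06 CPM in controls. Egr1 had 38.2, 31.8 and 14 CPM in libraries labelled mutant, against 15, 26.5 and 24.2 CPM in controls. Library 3 labelled mutant was low for all 3 genes and control 3 was high for Fos and Fosb, so the groups overlapped. The log2 fold changes were 0.72 ± 0.91 for Fos, 0.54 ± 0.76 for Fosb and 0.36 ± 0.47 for Egr1 (SE), and none was called (edgeR adjusted p = 0.84, 0.854 and 0.847).

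The libraries with low Fos are also those with Y-linked counts. Y-linked genes summed to 141 CPM in library 3 labelled mutant and to 166 and 134 CPM in controls 1 and 2, and to at most 0.0463 CPM in libraries 1 and 2 labelled mutant and control 3. With Y-linked CPM as a covariate, Fos was -0.04 ± 0.25 (SE, edgeR adjusted p = 0.984), Fosb was -0.27 ± 0.42 and Egr1 was -0.01 ± 0.42, while Fosl2, Egr3 and Rgs2 stayed called. The progenitor libraries did not repeat this order. There Y-linked genes summed to 0, 155, 99.4 and 170 CPM in libraries 1 to 4 labelled mutant and to at most 0.0381 CPM in controls, and libraries 1, 2 and 4 had alike low Fos. Sex and the other ways in which these libraries differ cannot be told apart in 6 libraries, and their part in the Fos values was not tested further.

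Whether postmitotic Fos was called depended on the libraries used. The authors' deposited table of the postmitotic comparison lists Fos at a log2 fold change of 1.95 (adjusted p of 8.85e-06 in the authors' deposited table). A fit here of libraries 1 and 2 labelled mutant against controls 1 and 2, which leaves out the low library 3 and the high control 3, gave 1.94 ± 0.27 (SE, edgeR adjusted p = 0.00216). With these 4 libraries Fos, Fosl2 and Ier5 rose and Egr3, Npas4 and Rgs2 fell, beside 1.75% of all tested genes (0.741% higher and 1.01% lower). Both high Fos libraries there lack Y-linked counts and both low ones have them. The libraries left out are those that made Fos overlap between the groups. The Fos call in this subset therefore describes the choice of libraries and is not a separate test. Ier5, an early-response protein that acts with the phosphatase PP2A, had 24.7, 30.2 and 17.7 CPM in libraries labelled mutant, against 15, 13.8 and 18.4 CPM in controls. Library 3 labelled mutant was below control 3, and over all 6 libraries the log2 fold change was 0.62 ± 0.18 (SE, edgeR adjusted p = 0.177), which DESeq2 called (adjusted p = 0.00851). Without library 3 labelled mutant alone, Ier5 was 0.80 ± 0.14 and called (edgeR adjusted p = 0.00604), Npas4 was -0.93 ± 0.17 and called (edgeR adjusted p = 0.00891), and Fos was not (edgeR adjusted p = 0.521).

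**Figure D4:**
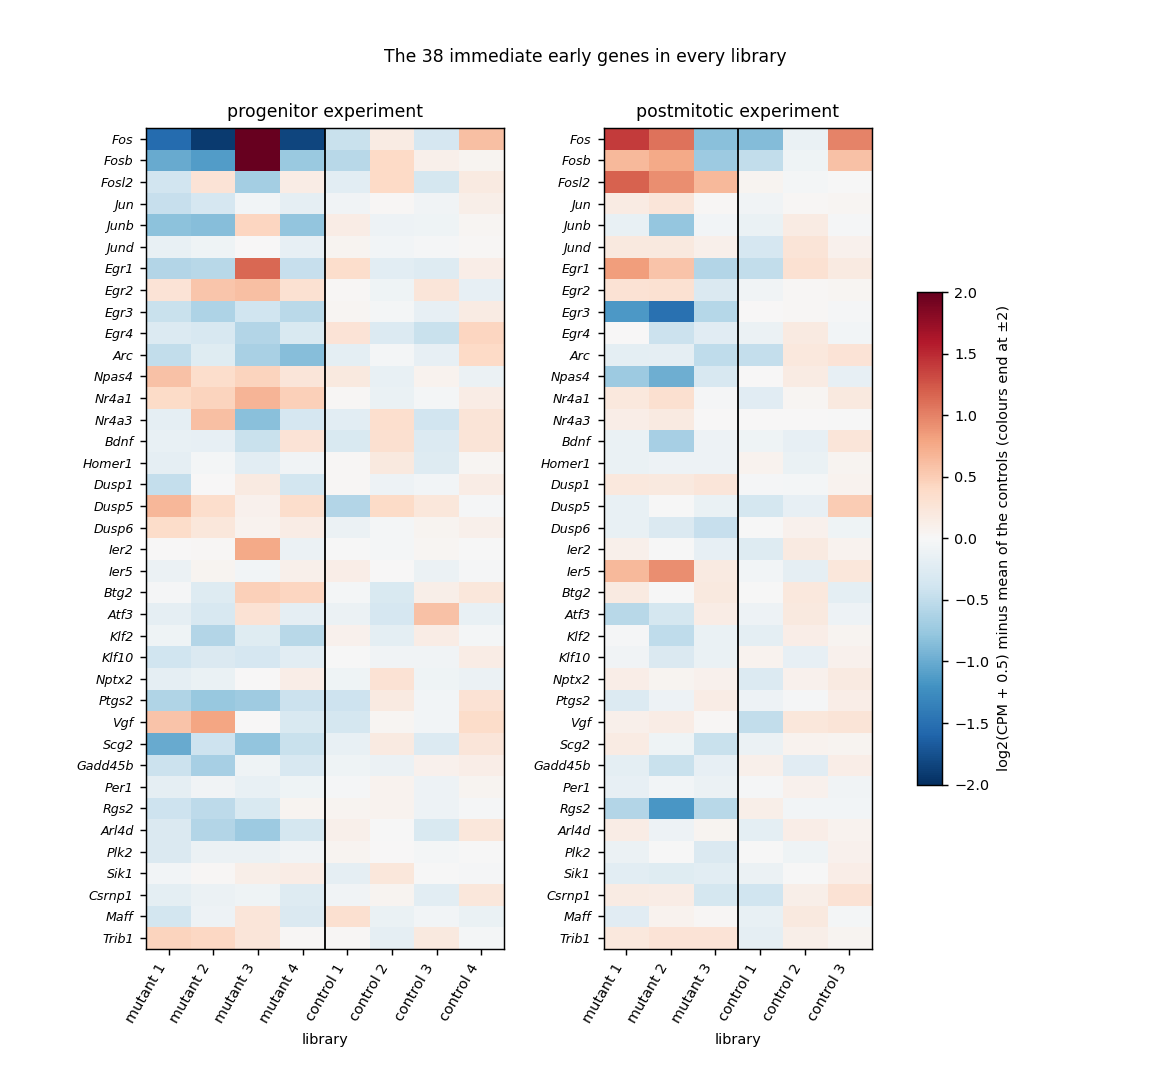
Each of the 38 members (rows) in every library (columns; libraries labelled mutant left of the black line, controls right of it), coloured by log2(CPM + 0.5) minus the mean of the controls of the same experiment, with colours ending at ±2. Fos, Fosb and Egr1 are red in progenitor mutant 3 and blue in the other progenitor libraries labelled mutant, whereas Egr3 is blue and Nr4a1 red in all 4 of them.

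The members varied more between libraries of 1 group than most genes did. The biological coefficient of variation, edgeR's estimate of the spread beyond counting error, had a median of 0.154 over the progenitor members and 0.0921 over all tested genes, and 28 of 38 members were above that value of all genes. Among postmitotic libraries the medians were 0.147 for the members and 0.118 for all tested genes, with 24 of 37 members above. For Fos it was 1.12 (progenitor) and 0.743 (postmitotic). The progenitor values of Fos, Fosb, Junb and Egr1 rest largely on library 3 labelled mutant. Without it they were 0.26, 0.303, 0.0975 and 0.133, against 1.12, 1.15, 0.298 and 0.447 with it. Members and all tested genes were not matched for level. The number of members above their own group mean was 12, 18, 21 and 17 of 38 in progenitor libraries 1 to 4 labelled mutant, and 17, 18, 11 and 25 in controls 1 to 4. It was 28, 22 and 16 of 37 in postmitotic libraries 1 to 3 labelled mutant, and 8, 24 and 25 in controls 1 to 3. Postmitotic control 1 was low for most members, with a median deviation of -0.11 from the group mean on the log2 scale, against 0 over all tested genes. In it 1 of 8 AP-1 factors, 4 of 10 EGR, NR4A, NPAS4 and KLF factors, 2 of 13 feedback regulators and 1 of 6 effectors were above the group mean.

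**Figure D5:**
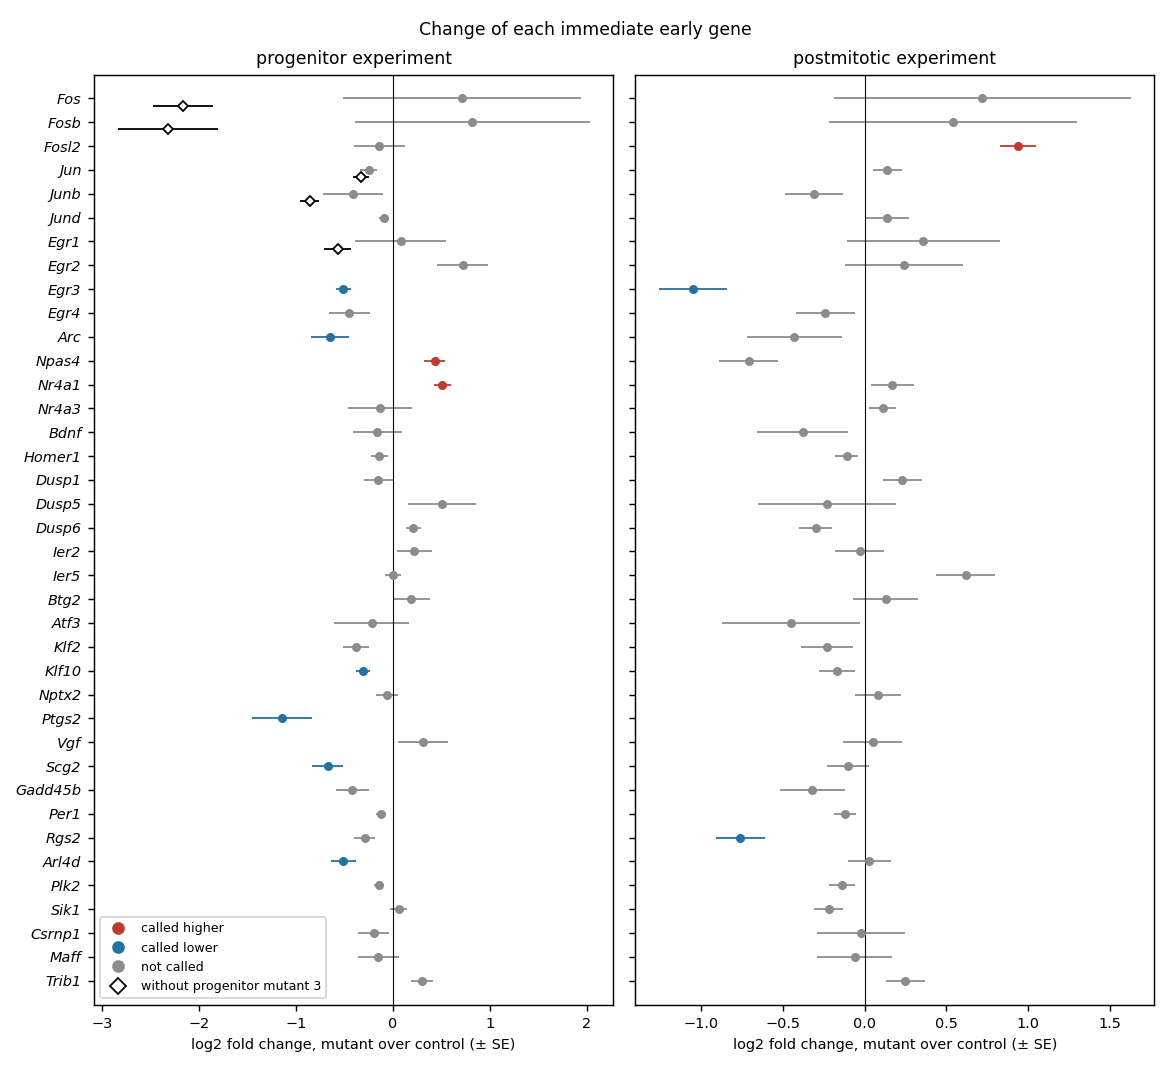
Log2 fold change (libraries labelled mutant over controls, with SE as bars) of each member in the progenitor (left) and postmitotic (right) experiment, red where called higher, blue where called lower and grey where not called; Ptgs2 was not tested in the postmitotic experiment. Open diamonds give Fos, Fosb, Jun, Junb and Egr1 without progenitor library 3 labelled mutant, where Fos was -2.17 against 0.71 with it.

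Genes around the members in the same pathway were counted from 4 further lists that hold no member. The activity-induced and the dissociation list share Zfp36 and Ier3, which are counted in both. The counts of these lists in the progenitor experiment stand beside 23.4% of all tested genes called. There 2 rose and 18 fell among 41 genes of calcium and MAP kinase signalling to the nucleus (48.8%), with a median log2 fold change of -0.15. Camk2d and Camk2a, subunits of a calcium-dependent kinase of synapses, were -1.05 ± 0.07 and -0.81 ± 0.08, and Rps6ka2, an ERK-activated kinase, was -0.68 ± 0.09 (SE, edgeR adjusted p = 1.03e-05, 7.77e-05 and 0.00059). Mapk3, a MAP kinase gene, and Map2k1, the gene of a kinase that activates MAP kinases, were among those that fell. Without library 3 labelled mutant the list had 1 higher and 17 lower, beside 15.4% of all tested genes called. With Y-linked CPM as a covariate it had 1 higher and 10 lower, beside 6.2% of all tested genes. Markers of excitatory neurons went both ways: of 6, 1 rose (Neurod2, 0.30 ± 0.06, SE) and 2 fell. Those were Slc17a7, a vesicular glutamate transporter of maturing neurons (-0.78 ± 0.10), and Emx1 (-0.34 ± 0.10). Neurod6 (0.49 ± 0.18), Tbr1 (-0.36 ± 0.12) and Slc17a6 (-0.14 ± 0.11) were not called by edgeR. The summed level of the 6 was 753 to 861 CPM in libraries labelled mutant and 829 to 1030 CPM in controls. Slc17a7 alone averaged 277 CPM in libraries labelled mutant and 477 CPM in controls.

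Of 24 upstream factors and coactivators in the progenitor experiment, 3 rose and 2 fell (20.8%), with a median of 0.05, which is near the share of all genes. Crtc3, a CREB coactivator, was 0.53 ± 0.09, Arnt, a partner of NPAS4, was 0.38 ± 0.07, and Mef2a was -0.32 ± 0.06 (SE). Of 51 other activity-induced genes, 8 rose and 12 fell (39.2%), with a median of -0.12. Without library 3 labelled mutant 5 rose and 8 fell, beside 15.4% of all tested genes called. Inhba, which encodes activin A, was 1.07 ± 0.11, Myc was 0.50 ± 0.06 and the cell cycle inhibitor gene Cdkn1a was -1.12 ± 0.12 (SE). Of 30 dissociation and heat shock genes, 0 rose and 9 fell (30%), with a median of -0.06. The metallothionein genes Mt1 and Mt2 were -0.93 ± 0.08 and -0.96 ± 0.11 and Sqstm1 was -0.34 ± 0.06 (SE). Without library 3 labelled mutant 5 of the 30 fell, beside 7.36% of all tested genes called lower.

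In the postmitotic experiment these lists were quieter, where 1.96% of all genes were called. Of 52 other activity-induced genes, 2 rose and 2 fell, with a median of -0.09. Klf9 was -0.42 ± 0.07, Nptx1 was 0.66 ± 0.14 and Adcyap1, the gene of the peptide PACAP, was -0.53 ± 0.11 (SE). Of 41 calcium and MAP kinase genes, 0 rose and 2 fell: Adcy8, a calcium-stimulated adenylyl cyclase, was -1.15 ± 0.10 and Camk2a was -0.50 ± 0.08 (SE). Among 25 upstream factors edgeR called 0, with 2 at an unadjusted p under 0.05 and 0 called by DESeq2 or limma-voom. Among 29 dissociation and heat shock genes edgeR called 0, with 5 at an unadjusted p under 0.05, 1 called higher by DESeq2 and 0 by limma-voom.

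Markers of other cell types were read in the same libraries, where 23.4% of all genes were called in the progenitor experiment. In the progenitor experiment microglia and macrophage markers summed to 107 to 168 CPM in libraries labelled mutant and to 137 to 207 CPM in controls, and 2 of 11 fell (18.2%). Endothelial and mural markers summed to 402 to 591 CPM in libraries labelled mutant and to 337 to 508 CPM in controls, and 3 of 12 rose (25%). Interneuron markers summed to 282 to 323 CPM in libraries labelled mutant and to 294 to 379 CPM in controls, and 2 of 10 fell (20%). Of 8 oligodendrocyte-lineage markers 3 rose (37.5%), of 8 astrocyte and radial glia markers 2 fell (25%), and of 8 upper-layer markers 3 rose (37.5%). Red blood cell markers summed to 11.3 to 16.2 CPM in libraries labelled mutant and to 5.33 to 8.62 CPM in controls, which did not overlap. Of these 5 markers, 4 globin genes are at 0 in every progenitor library, and Alas2, an enzyme of haem synthesis in red cell precursors, rose by 1.05 ± 0.16 on the log2 scale (SE, edgeR adjusted p = 0.00146).

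Under postmitotic Cre edgeR called 0 markers of microglia, vessels, astrocytes, oligodendrocyte lineage, interneurons or red blood cells. At an unadjusted p under 0.05 there were 5 of 8 astrocyte markers, 1 vessel and 1 interneuron marker, and DESeq2 called 2 astrocyte markers lower and 0 of the others. Markers of excitatory neurons did change there: of 6, 2 rose and 3 fell (83.3%, against 1.96% of all genes). Libraries labelled mutant carried the NexCre allele and controls did not. The part of that allele itself in these changes was not tested. The vesicular glutamate transporter gene Slc17a6 was -1.08 ± 0.11, and the transcription factor genes Emx1, Neurod6, Tbr1 and Neurod2 were -0.80 ± 0.08, -0.61 ± 0.11, 0.49 ± 0.07 and 0.51 ± 0.09 (SE, edgeR adjusted p = 0.000106 to 0.0135 for the 5 genes). Their summed level was 691 to 796 CPM in libraries labelled mutant and 704 to 779 CPM in controls. Of 8 upper-layer markers there, 1 rose, which was Lhx2 itself, and 2 fell (Cux1 and Rorb). In progenitor library 3 labelled mutant, where Fos was highest, microglia markers summed to 110 CPM and vessel markers to 505 CPM, within the range of the other libraries labelled mutant. The part of these cells in the members' values was not tested.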

How the data were processed

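Polyadenylated RNA of 14 libraries was sequenced as paired directional reads, per the labels' protocols. The authors deposited 1 table of raw whole-number counts per gene symbol for each experiment. The submitters' processing notes name HISAT2, featureCounts, DESeq2 and mm10; versions, annotation and use of strand were not given in the sources used here. Deposited by the authors as well were DESeq2 tables holding a log2 fold change, a p-value and an adjusted p for each gene, with 0 where a value is missing. The tables hold 0 columns of other samples.

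Each experiment was fitted alone with edgeR 4.0.16 in R 4.3.3 (filterByExpr, TMM, robust glmQLFit, glmQLFTest), with Benjamini-Hochberg adjustment over all tested genes and a call at an adjusted p under 0.05. The log2 fold change is libraries labelled mutant over controls, and its SE is |log2 fold change| / √F. The difference between experiments is the interaction in 1 fit of 14 libraries over 15643 of the 24690 shared symbols. Totals were 21605777 to 29497595 counts, and members with few counts carry the widest errors. On simulated counts the procedure missed part of the changes, small ones most often and, in some comparisons, large ones too. The share of false calls was above the threshold in every comparison, and clearly so in the fits of each experiment alone. Fewer genes were changed in the simulated counts than were called in the progenitor experiment.

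The 38 members, their role groups and the further lists were chosen with earlier results of these data known, so counts over them are descriptions. Values per library are given for every called member and for Fos, Egr1, Npas4, Arc, Bdnf and Homer1, for each further list for up to 3 called genes with the smallest p, and for Lhx2; Fosb, Junb, Jun, Ier5 and genes named as examples were picked with their values in view. The alternatives tried were DESeq2 1.42.0, limma-voom (limma 3.58.1), other scaling and filters, no robust step, an adjusted p under 0.01, a joint fit of both experiments, a block for the replicate number, thinned counts, Y-linked CPM as a covariate, a subset of postmitotic libraries and leaving out each library. List counts under each alternative and the count of genes that stand apart in 1 library were added after seeing the data. Positions, exon lengths and promoters are from GRCm38/mm10 annotation.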

Additional observations from a re-analysis of the deposited data

Results flagged for a closer look

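In groups of 4 libraries, the highest or lowest CPM of a member lay far from the others, by Dixon's ratio, in 8 of 76 groups of values. The cut-off is set to flag about 5% of groups of independent, normally distributed values. Members measured in 1 library are not independent, and the share flagged over all tested genes was not computed. The count is therefore not read as an excess. Progenitor library 3 labelled mutant accounts for 6 of the 8. It was the highest library labelled mutant for Fos (34.6 CPM, the next being 1.61 CPM), Fosb (5.23 CPM, next 0.259 CPM), Junb (21.9 CPM, next 9.16 CPM), Egr1 (67.2 CPM, next 21.6 CPM) and Ier2 (16.9 CPM, next 9.96 CPM), and the lowest for Egr4 (3.61 CPM, next 4.44 CPM). Among progenitor controls, control 2 was high for Nptx2, a secreted pentraxin of excitatory synapses (14 CPM, next 10.7 CPM), and control 1 was high for Maff, a small MAF factor (2.89 CPM, next 2.11 CPM).

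For Npas4 and Dusp6 the change differed between the experiments by a test of the difference itself. That test cannot tell apart Cre delivery, the stage at which Cre acts and the making of the count tables, which all differ between the experiments. The postmitotic minus progenitor log2 fold change was -1.14 ± 0.21 for Npas4 (SE, edgeR adjusted p = 0.00503), which was lower in 3 of 3 postmitotic libraries labelled mutant than in any of their controls and higher in 4 of 4 progenitor ones. It was -0.51 ± 0.12 for Dusp6 (SE, edgeR adjusted p = 0.0195), which was lower in 3 of 3 postmitotic libraries labelled mutant than in any of their controls. With Y-linked CPM as a covariate the Npas4 difference was -0.99 ± 0.25 and not called (SE, edgeR adjusted p = 0.0578). The Dusp6 difference was then -0.64 ± 0.15 and called (SE, edgeR adjusted p = 0.0367). Without postmitotic control 2 the Dusp6 call was lost (edgeR adjusted p = 0.0578).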

How the results depend on the processing

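The labels do not say whether replicate numbers pair the libraries. Over all tested genes, same-numbered deviations from the group mean correlated at -0.445, 0.0479, -0.176 and 0.0762 in the progenitor and at -0.115, 0.0366 and -0.191 in the postmitotic experiment. These values do not settle the pairing, because differently numbered libraries were not compared. Fosl2 ordered the progenitor libraries alike by number in both groups. With the replicate number as a block, 2 progenitor members were called higher and 7 lower (Jun and Klf2 gained, Arc lost), 1 and 2 postmitotic ones as before, and 3 for the difference (Fosl2 gained). The Fosl2 difference was 1.09 ± 0.12 with the block (SE, edgeR adjusted p = 0.000826) and 1.08 ± 0.34 without it. At an adjusted p under 0.01, 1 progenitor member was higher and 1 lower with 1567 genes called, and 0 postmitotic members were lower with 146 genes called (at that threshold edgeR's unadjusted p was under 0.05 for 7 postmitotic members). With Y-linked CPM as a covariate, 1 progenitor member was higher and 1 lower with a median of -0.28 and 948 genes called, and 1 member was called for the difference. In the postmitotic experiment DESeq2 called 2 higher with 504 genes called, against 348 genes in the fit reported above. No filter on low counts gave 2 higher and 723 genes called. Controls 1 and 2 against mutants 1 and 2 gave 3 higher, a median of 0.06 and 314 genes called. DESeq2 called 5 members for the difference (Fosl2, Jun, Ier5, Npas4 and Dusp6). The share of all genes called for the difference was computed only for the fit reported above. Member counts for the difference under other settings therefore have no background and are not read as a gain or loss. The cause of these shifts was not tested. Leaving out each library in turn gave 1 to 4 progenitor members higher, 2 to 8 lower, a median of -0.19 to -0.08 and 2383 to 3712 genes called. The same gave 1 to 2 postmitotic members higher, 0 to 3 lower, a median of -0.14 to 0.05 and 160 to 467 genes called, and 1 to 5 members called for the difference. Directions turned round without progenitor library 3 labelled mutant for Fos (-2.17, up to 1.08 without another library), Fosb (-2.32, up to 1.21) and Egr1 (-0.57, up to 0.26). Low counts limit Fosb and Ptgs2 most: Fosb had 2 to 6 counts in 3 of the progenitor libraries labelled mutant.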
